A study of Sus scrofa with 28 samples.

Results

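The genes described here encode structural proteins of the extracellular matrix and the enzymes and inhibitors that remodel it, measured in pig lung after inhaled sulfur mustard. Members were probe sets of the Affymetrix porcine array whose annotation gave a single gene symbol belonging to the collagens, laminins, fibulins, fibrillins, lysyl oxidases, matrix metalloproteinases (MMPs), ADAMTS proteases or tissue inhibitors of metalloproteinases (TIMPs). FN1, TNC, DCN, LUM, BGN, SPARC, POSTN and VCAN were added by name, and MMP9 was left out. Of 6765 genes with a single symbol, 45 were members, and each was represented by its brightest probe set. They comprised 7 fibrillar collagens, 5 basement membrane genes, 6 other collagens, 5 elastic fibre genes, 8 matricellular and proteoglycan genes, 7 MMPs, 3 ADAMTS genes and 4 TIMPs. ELN, the elastin gene, had no probe set under a single symbol and was not analysed here.

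All 10 animals were female swine that were anesthetized, intubated and lying supine during a 10 min exposure, and all were killed at 12 h. Air was given to 3 animals (numbers 28, 29 and 44), a low dose of 60 µg/kg HD (sulfur mustard) vapor to 3 animals (31, 32 and 33) and a medium dose of 100 µg/kg to 4 animals (34, 39, 41 and 42). HD is a blistering agent that alkylates DNA and protein. The left apical, median and caudal lobes gave 28 arrays, 1 array per lobe, without the caudal lobe of medium animal 39 and the apical lobe of medium animal 41.

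Fibrillar collagens give the lung its tensile strength, elastic fibres let it recoil, and basement membranes carry the alveolar epithelium and the capillary endothelium. MMPs and ADAMTS proteases cut matrix proteins, and TIMPs bind and block them. After lung injury, matricellular proteins such as tenascin-C, together with secreted proteases and TIMPs, are known to be produced while the damaged matrix is cleared and a provisional one is laid down.

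Values are log2(signal + 16) after quantile normalization, and an animal's value is its coefficient in a model of animal and lobe, so the missing lobes of animals 39 and 41 were filled by that model. Differences are on this log2 scale with their standard error, and adding 16 understates the change of dim genes. Every adjusted p below comes from limma with Benjamini-Hochberg adjustment over all 23999 probe sets, and a difference was called where it was under 0.05. Levels of different genes were not compared, because probe sets differ in how strongly they bind. Median signal ranged from 55.6 to 64.4 between arrays. RNA quality was read from control probe sets for actin and GAPDH, as the log2 signal at the 3' end minus that at the 5' end, which grows as RNA breaks down. It was 2.22 in medium animal 39 against 0.616 to 1.35 in the others. Results that change without that animal are given both ways.

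Marker genes of other cell types were followed beside the members, because whole tissue was measured. Fewer cells of a type and less RNA per cell cannot be told apart in such samples. The summed deposited signal of the 9 fibroblast markers measured, of 11 listed, was 7969 to 8489 in air, 8044 to 8538 in low and 7914 to 9057 in medium animals, so the ranges overlapped. The 6 neutrophil markers measured, of 15 listed, summed to 1582 to 2158 in air, 1805 to 1928 in low and 2289 to 2456 in medium animals, so the medium range lay above both others. None of these 6 was called by limma in medium animals against air, 2 had an unadjusted p under 0.05, and 3 of them had a mean signal below that of the median probe set. All 4 cartilage markers measured, of 12 listed, were that dim, with a sum of 50.8 to 88.1 in any animal. The 13 markers of alveolar and airway epithelium measured, of 17 listed, summed to 13166 to 14507 in air, 13845 to 15033 in low and 13355 to 16421 in medium animals, with 5 higher at an unadjusted p under 0.05 in medium animals against air. For the 8 smooth muscle markers measured, of 11 listed, the sums were 6873 to 8621 in air, 7819 to 9089 in low and 8173 to 10226 in medium animals, with 3 higher on the same count. For the 11 macrophage and monocyte markers measured, of 16 listed, they were 9002 to 10924 in air, 9701 to 10911 in low and 6872 to 10466 in medium animals, with 9 differences below 0, 1 of them at an unadjusted p under 0.05. The ranges of these 3 lists overlapped between groups, and none of their markers was called over the lobes. Of all probe sets, 16.6% had an unadjusted p under 0.05 in medium animals against air. The part of these cell types and of neutrophils in the differences between medium and air animals was not tested.

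The first question was which matrix genes differed between medium-dose and air lungs at 12 h. COL8A1, a short-chain collagen of the vessel wall, was the only member called, with a difference of 0.50 ± 0.07. TIMP3, TIMP1, TNC, ADAMTS1 and COL5A1 had larger differences, between 0.57 and 0.85, and BGN one of 0.37, but their standard errors were larger too and none of them was called. MMP2 and MMP14 had differences of -0.27 ± 0.11 each, also not called. Over the 45 members, 20 differences were above 0 and 25 below, with a median of -0.02 (all probe sets: 0.00). The call of COL8A1 made 1 of 45 members, where 0.129% of all probe sets were called. At an unadjusted p under 0.05 the count was 9 of 45 members, 7 higher and 2 lower, against 16.6% of all probe sets, a share close to that background.

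**Figure D1:**
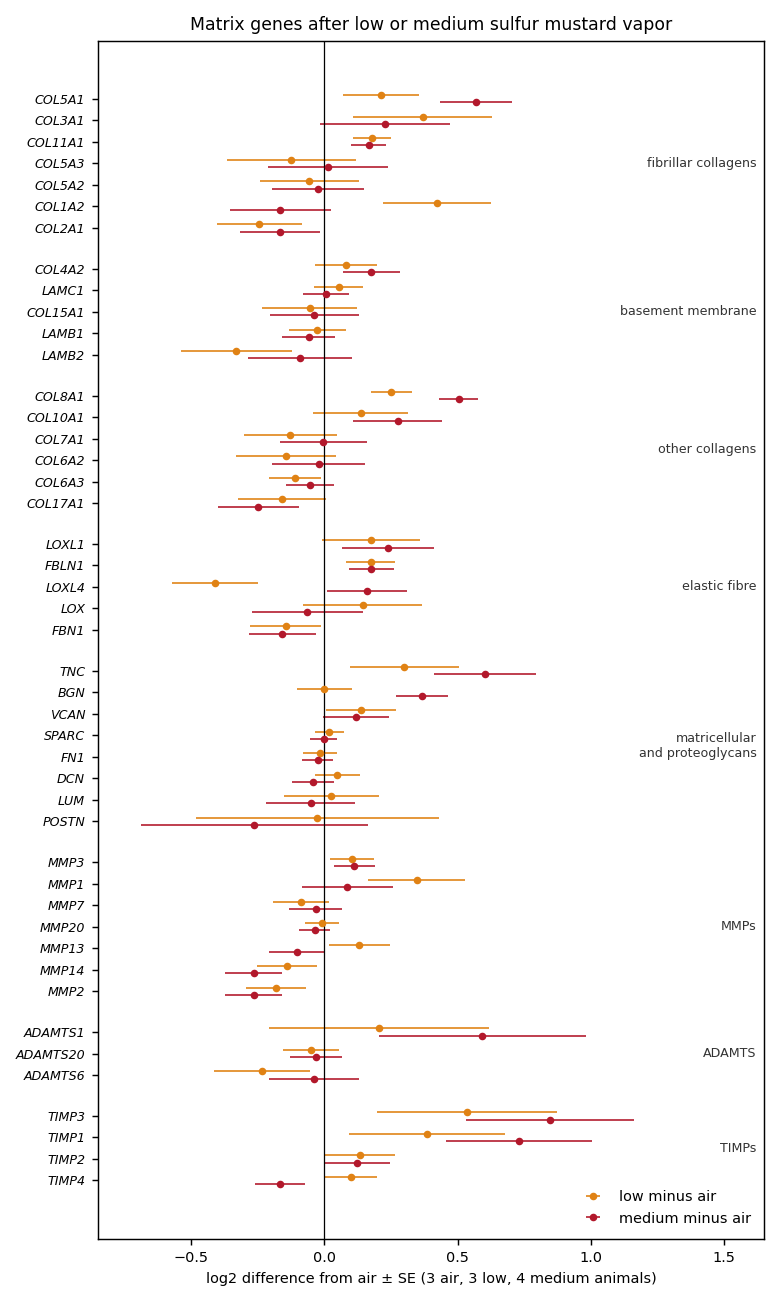
Log2 difference from air with its standard error for each of the 45 members, ordered by role, in low (orange) and medium (red) animals (3 air, 3 low and 4 medium animals). Most members lie near 0 at both doses, and COL8A1, COL5A1, ADAMTS1, TNC, TIMP1 and TIMP3 lie farthest to the right in medium animals.

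Among the 7 fibrillar collagens, which form the cable-like fibres of the interstitium, 4 differences were above 0 and 3 below, with a median of 0.01 and no call. COL5A1, which helps set fibril diameter, stood at 9.20, 9.06 and 9.32 in air animals, 9.58, 9.46 and 9.17 in low animals, and 9.50, 9.75, 10.02 and 9.77 in medium animals. Every medium animal was above every air animal, and the low animals overlapped the air animals. The difference was 0.57 ± 0.13 (adjusted p = 0.106), and in deposited signal the group means were 574 ± 48.8 (SD, n = 3) in air and 890 ± 146 (SD, n = 4) in medium. COL11A1, best known from cartilage, was dim at a mean signal of 11.1 and stood at 4.63, 4.60 and 4.64 in air, 4.84, 4.74 and 4.82 in low and 4.69, 4.80, 4.91 and 4.76 in medium animals. Both dose groups lay above air without overlap, with a difference of 0.17 ± 0.07 in medium animals (adjusted p = 0.258), but its other probe set had the opposite sign (-0.11). COL3A1, the type III collagen of compliant tissues, had a difference of 0.23 ± 0.24, COL1A2, a chain of type I collagen, one of -0.17 ± 0.19, and COL2A1, the cartilage collagen, one of -0.17 ± 0.15. None of these 3 had an unadjusted p under 0.05.

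The 6 other collagens held the only called member. COL8A1 stood at 6.14, 6.12 and 6.10 in air animals, 6.26, 6.39 and 6.46 in low animals, and 6.60, 6.57, 6.75 and 6.58 in medium animals. The 3 groups followed the dose without any overlap. In deposited signal the means were 53.7 ± 0.585 (SD, n = 3) in air, 68.9 ± 5.76 (SD, n = 3) in low and 86.1 ± 9.0 (SD, n = 4) in medium animals. The medium difference had an adjusted p of 0.0416. Its size ran from 0.46 to 0.53 when an animal was left out, but the call was lost without any of animals 28, 29, 44, 31, 32, 33, 41 or 42, with adjusted p from 0.0530 to 0.256. Without animal 39 the difference was 0.53 and was called (adjusted p = 0.0322).

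COL8A1 has 3 further probe sets on the array, all dimmer, and they did not move together. In medium against air their differences were 0.31 ± 0.11, -0.00 ± 0.11 and -0.19 ± 0.10, so 2 of the 3 had the opposite sign, and the mean over all 4 probe sets gave 0.16 (adjusted p = 0.213). For the brightest probe set, values over all lobes of an animal differed within a group by an SD of 0.08. Single arrays, after animal and lobe means, had a residual SD of 0.28 between lobes. The standard error of the difference rests on the spread between animals, so a small SD there makes it small. With the replicate block as a random effect over all arrays, COL8A1 was not called.

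The remaining members of that group were dim or close to 0. COL10A1, a collagen of growth plate cartilage, stood at 4.39, 4.30 and 4.45 in air, 4.26, 4.46 and 4.82 in low and 4.30, 4.55, 4.91 and 4.87 in medium animals, which overlapped (0.27 ± 0.17, adjusted p = 0.443). COL17A1, which anchors epithelium to its basement membrane, had a difference of -0.25 ± 0.15 (adjusted p = 0.452). COL7A1, the anchoring fibril collagen, and COL6A2 and COL6A3, of the beaded filaments around cells, lay between -0.05 and 0.00.

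**Figure D2:**
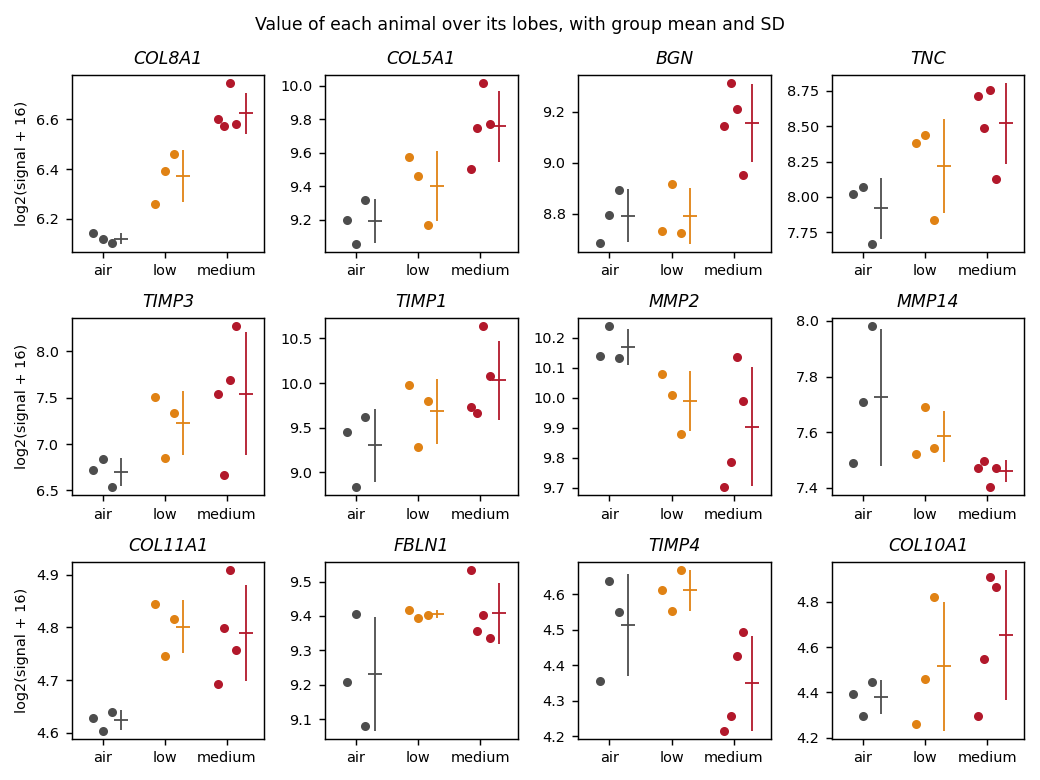
Value of each animal over its lobes, as log2(signal + 16), for the 12 members with the smallest p in medium against air, with the group mean and SD beside the points (3 air, 3 low and 4 medium animals, each panel on its own axis). COL8A1 runs from 6.10 to 6.14 in air and from 6.57 to 6.75 in medium animals, whereas TIMP3 in medium animal 39 (6.67) lies among the air animals.

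The 5 basement membrane genes moved least as a group, with differences from -0.09 to 0.18 and no call. COL4A2, a chain of the type IV network, had 0.18 ± 0.11 (adjusted p = 0.447), and LAMB2, a laminin chain, -0.09 ± 0.19. LAMB1 and LAMC1, which pair with laminin alpha chains, and COL15A1, which lies at the outer face of basement membranes, were within 0.06 of 0. The 5 elastic fibre genes had a median difference of 0.16 and no call. FBLN1, a fibulin that binds elastin and fibronectin, stood at 9.21, 9.41 and 9.08 in air, 9.42, 9.39 and 9.40 in low and 9.53, 9.36, 9.40 and 9.34 in medium animals. The groups overlapped only at air animal 29, and the difference was 0.18 ± 0.09 (adjusted p = 0.334). LOXL1, which cross-links elastin, had 0.24 ± 0.17, and FBN1, the main microfibril protein, -0.16 ± 0.13.

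Of the 8 matricellular and proteoglycan genes, BGN and TNC differed most. BGN, the small leucine-rich proteoglycan biglycan, stood at 8.68, 8.80 and 8.89 in air, 8.73, 8.92 and 8.72 in low and 9.15, 9.32, 9.21 and 8.95 in medium animals. Every medium animal was above every air and every low animal, and the difference from air was 0.37 ± 0.10 (adjusted p = 0.129). TNC, tenascin-C, stood at 8.02, 8.07 and 7.67 in air, 8.38, 8.44 and 7.84 in low and 8.71, 8.49, 8.76 and 8.13 in medium animals. All medium animals were above all air animals, with a difference of 0.60 ± 0.19 (adjusted p = 0.173), and 2 low animals lay above the lowest medium animal.

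SPARC and FN1 were read near the top of the signal range and did not separate medium from air animals. SPARC, a collagen-binding glycoprotein, had at most 52 of 24123 probe sets brighter than it on any array, and its difference was -0.00 ± 0.05. FN1, fibronectin, had a difference of -0.02 ± 0.06. In deposited signal SPARC averaged 3207 ± 197 (SD, n = 3) in air and 3125 ± 182 (SD, n = 4) in medium animals. DCN, decorin, had all medium animals (10.88 to 10.96) below all air animals (10.97 to 10.99), but by only -0.04 ± 0.08. Its deposited signal overlapped between these groups. POSTN, periostin, varied most between animals of a group, with an SD of 0.65, and its difference of -0.26 ± 0.43 became 0.10 when air animal 44 was left out.

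The 7 MMPs had a median difference of -0.04, with 5 below 0 and 2 above and no call. MMP2, gelatinase A, stood at 10.14, 10.24 and 10.13 in air, 10.08, 10.01 and 9.88 in low and 9.70, 9.79, 10.14 and 9.99 in medium animals. Medium animal 41 overlapped the air animals and the other 3 were below them (adjusted p = 0.254). MMP14, the membrane-bound protease that activates pro-MMP2, stood at 7.49, 7.71 and 7.98 in air, 7.52, 7.69 and 7.54 in low and 7.47, 7.50, 7.40 and 7.47 in medium animals. Air animal 28 lay within the medium range (adjusted p = 0.255). The collagenases MMP1 and MMP13, the stromelysin MMP3, matrilysin MMP7 and the enamel protease MMP20 were all dim, with differences from -0.10 to 0.11. None of these 5 had an unadjusted p under 0.05.

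Among the 3 ADAMTS genes, ADAMTS1, which cuts versican and aggrecan, had a large but uneven difference. It stood at 9.02, 8.96 and 9.45 in air and at 9.02, 9.04, 10.52 and 10.37 in medium animals, so animals 41 and 42 were high and animals 34 and 39 were not (0.59 ± 0.39, adjusted p = 0.478). Its second probe set gave a similar value of 0.66 ± 0.40. ADAMTS6 and ADAMTS20 were within 0.04 of 0.

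The 4 TIMPs had the highest median of the role groups, 0.43, and no call. TIMP3, the TIMP that binds to the matrix itself, stood at 6.72, 6.83 and 6.54 in air, 7.51, 6.85 and 7.34 in low and 7.54, 6.67, 7.69 and 8.27 in medium animals. Medium animal 39 lay among the air animals and the other 3 were above them, and the difference was 0.85 ± 0.32 (adjusted p = 0.226). Without animal 39, which had the least intact RNA, it was 1.14 and was called (adjusted p = 0.0462). The second-brightest probe set of TIMP3 gave 0.66 ± 0.25.

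TIMP1, an inducible inhibitor of many MMPs, stood at 9.45, 8.83 and 9.62 in air, 9.98, 9.28 and 9.79 in low and 9.74, 9.67, 10.64 and 10.08 in medium animals. All medium animals were above all air animals, with a difference of 0.73 ± 0.27 (adjusted p = 0.229). Its mean deposited signal was 654 ± 199 (SD, n = 3) in air and 1137 ± 437 (SD, n = 4) in medium animals. On that scale the groups overlapped. TIMP4, which was dim, stood at 4.35, 4.64 and 4.55 in air, 4.61, 4.55 and 4.67 in low and 4.22, 4.26, 4.43 and 4.49 in medium animals, an overlapping difference of -0.17 ± 0.09 (adjusted p = 0.407). TIMP2, which also takes part in activating pro-MMP2, had 0.12 ± 0.12.

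Counted by overlap alone on the normalized scale, 6 members had every medium animal above every air animal, where 6.88% of all probe sets did. These were COL8A1, COL5A1, BGN, TNC, TIMP1 and COL11A1. DCN was the 1 member with every medium animal below every air animal, where 6.6% of all probe sets did. In low animals 5 members lay wholly above air (COL8A1, COL11A1, COL3A1, SPARC and TIMP3), where 9.23% of all probe sets did, and 3 wholly below (LOXL4, COL2A1 and MMP2), where 9.41% did. SPARC lay above air by only 0.02 ± 0.05 after quantile normalization. Its deposited signal overlapped, at 3059 to 3431 in air and 2795 to 3275 in low animals. The deposited signal of TIMP1 overlapped as well, at 441 to 836 in air and 814 to 1760 in medium animals. That of DCN did too, at 1940 to 2132 in air and 1831 to 2028 in medium animals. COL2A1 overlapped there at 43.2 to 60.6 in air and 35.7 to 44.6 in low animals.

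Most members can be read at more than 1 place on the array. Of the 45, 24 had more than 1 probe set and 21 had 1. In 12 of the 24, every other probe set had the same sign as the brightest in medium against air, among them ADAMTS1, TIMP3, POSTN, COL17A1, FBN1, COL2A1 and TIMP4. In the other 12, at least 1 had the opposite sign. These were COL8A1, COL5A1, COL11A1, COL5A3, COL1A2, LOXL4, VCAN, FN1, DCN, MMP3, MMP13 and TIMP2. For COL5A1, 4 of the 5 other probe sets had a positive difference (0.13 to 0.44) and 1 a difference of -0.04. Of the 45 brightest probe sets, 14 had a mean signal below that of the median probe set (61.5).

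**Figure D3:**
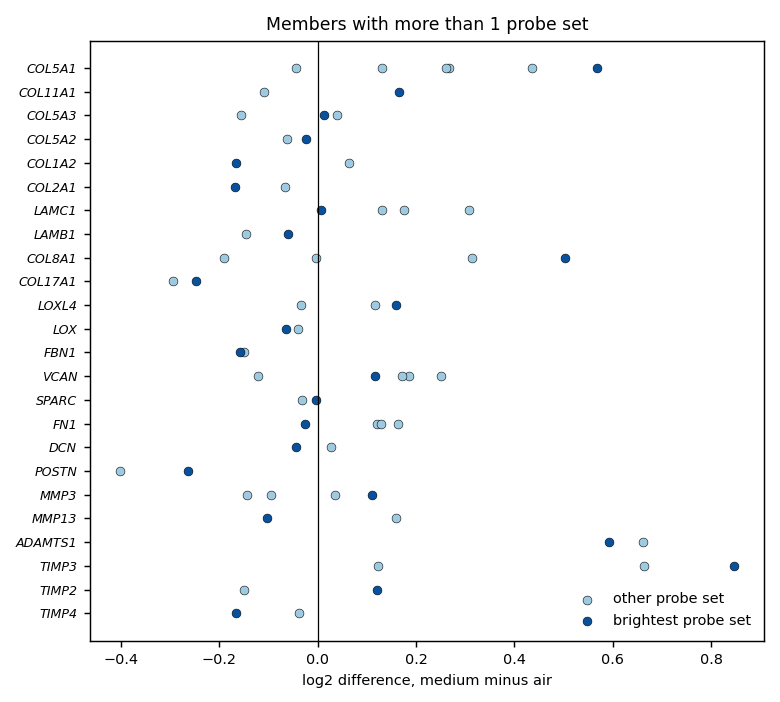
Log2 difference of medium minus air for each probe set of the 24 members that have more than 1, with the brightest in dark blue and the others in light blue. The probe sets of ADAMTS1 and TIMP3 lie on the same side of 0, and those of COL8A1 range from -0.19 to 0.50.

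Low-dose lungs were then set against air. No member was called by limma, and 0.0% of all probe sets were. An unadjusted p under 0.05 was found for 3 of 45 members, close to the 7.41% of all probe sets. These were COL8A1 (0.25 ± 0.08, adjusted p = 0.653), LOXL4 (-0.41 ± 0.16, adjusted p = 0.661) and COL11A1 (0.18 ± 0.07, adjusted p = 0.665). The median over members was 0.03 (all probe sets: -0.01), with 24 above 0 and 21 below. The values of the low and medium comparisons below share the air animals.

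The 5 largest positive differences in low animals were 0.53 ± 0.34 for TIMP3, 0.42 ± 0.20 for COL1A2, 0.38 ± 0.29 for TIMP1, 0.37 ± 0.26 for COL3A1 and 0.35 ± 0.18 for MMP1. COL1A2 stood at 7.25, 7.48 and 7.63 in air animals and 8.13, 7.55 and 7.95 in low animals, so low animal 32 overlapped air, and its second, dim probe set had the opposite sign (-0.16). The 5 largest negative differences were those of LOXL4, LAMB2 (-0.33 ± 0.21), COL2A1 (-0.24 ± 0.16), ADAMTS6 (-0.23 ± 0.18) and MMP2 (-0.18 ± 0.11). LOXL4, a lysyl oxidase-like enzyme that cross-links collagen, stood at 6.44, 6.47 and 6.55 in air and 5.97, 6.17 and 6.09 in low animals, with no overlap. A dimmer probe set of LOXL4 had 0.12 ± 0.07, the opposite sign. All 4 TIMPs had positive differences in low animals at their brightest probe set, from 0.10 to 0.53, and none had an unadjusted p under 0.05. The other probe set of TIMP2 and that of the dim TIMP4 had the opposite sign.

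Between the doses, no member was called by limma in medium against low, where 0.00417% of all probe sets were. The looser threshold, an unadjusted p under 0.05, took 6 of 45 members against 18.2% of all probe sets, so members were not above the background. LOXL4 had the smallest p, with values of 6.22, 6.99, 6.66 and 6.72 in medium animals against 5.97, 6.17 and 6.09 in low animals, which did not overlap. Its difference was 0.57 ± 0.15 (adjusted p = 0.136), and without medium animal 34 it was 0.71 and was called (adjusted p = 0.0179). BGN had 0.37 ± 0.10 (adjusted p = 0.138), COL8A1 0.25 ± 0.07 (adjusted p = 0.149) and COL5A1 0.36 ± 0.13 (adjusted p = 0.222).

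COL1A2 went the other way between doses. It was 7.60, 6.88, 7.21 and 7.46 in medium animals, so animal 34 overlapped the low animals and the other 3 were below them (-0.59 ± 0.19, adjusted p = 0.176). The dim TIMP4 lay lower in every medium animal than in every low animal (-0.26 ± 0.09, adjusted p = 0.201). MMP1, MMP13 and POSTN had -0.26 ± 0.17, -0.23 ± 0.11 and -0.24 ± 0.43, and ADAMTS1 and TIMP1 had 0.39 ± 0.39 and 0.35 ± 0.27. None of these 5 had an unadjusted p under 0.05.

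A further question was whether matrix genes differed between lobes of the same lung. VCAN, the large proteoglycan versican, was lower in the apical than in the median lobe, with a difference of -0.50 ± 0.09 (adjusted p = 0.0149). It was lower in 8 of the 9 animals with both lobes, with within-animal differences from -0.85 to 0.15, and low animal 31 was the exception. Apical values ran from 8.45 to 9.34 and median values from 9.0 to 9.47. The next brightest probe sets of VCAN gave -0.67 ± 0.12 (adjusted p = 0.0149) and -0.56 ± 0.13 (adjusted p = 0.0308). The call was lost without medium animal 34 (adjusted p = 0.0615) or 42 (adjusted p = 0.0547).

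VCAN was the only 1 of 45 members called between the apical and median lobes, where 2.38% of all probe sets were called, which is close to that share. The looser threshold took 16 of 45 members (35.6%) against 16.6% of all probe sets, a larger share. Among all 6765 genes, each at its brightest probe set like the members, it took 707 higher and 801 lower. The excess of members was not tested. MMP2 and MMP14 were both higher in the apical lobe on this looser count, by 0.22 ± 0.06 (adjusted p = 0.0578) and 0.23 ± 0.08 (adjusted p = 0.134). COL5A1 (-0.31 ± 0.09), COL8A1 (-0.38 ± 0.12), TIMP1 (-0.43 ± 0.16) and FBLN1 (-0.19 ± 0.06) had lower apical than median values and were not called. These lobe differences pool air and exposed animals. For COL8A1 the median minus apical difference was larger than in air by 0.69 in medium and 0.01 in low animals. Its interaction of exposure and lobe was not called. Of the 13 epithelial markers 11 had lower apical values and 2 of these were called (KRT19, -0.43 ± 0.09, and KRT18, -0.53 ± 0.14), while none of the 9 fibroblast or 8 smooth muscle markers was called. The part of epithelial RNA in the lobe differences was not tested.

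COL15A1 was lower in the apical than in the caudal lobe in 8 of 8 animals with both lobes, with a difference of -0.26 ± 0.05 (adjusted p = 0.0499) and within-animal differences from -0.46 to -0.11. Its median minus caudal difference was below 0 in 9 of 9 animals, at -0.29 ± 0.05 (adjusted p = 0.0833), which was not called. Between the apical and median lobes its difference was 0.03 ± 0.05. The apical to caudal call was marginal, and it was lost on leaving out any animal but low animal 31, with adjusted p from 0.0523 to 0.136.

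COL15A1 was the 1 of 45 members called between the apical and caudal lobes, where 0.167% of all probe sets were called. The looser count was 14 of 45 members (31.1%) against 13.6% of all probe sets, again a larger share that was not tested. Among all 6765 genes at their brightest probe set, this count was 526 higher and 616 lower. LOX, the enzyme that cross-links collagen and elastin, was higher in the apical lobe in 8 of 8 animals (0.45 ± 0.11, adjusted p = 0.0939), and LUM, lumican, in 7 of 8 (0.36 ± 0.11, adjusted p = 0.135). VCAN (-0.34 ± 0.09), MMP14 (0.28 ± 0.08) and MMP2 (0.22 ± 0.06) kept the signs they had against the median lobe, in comparisons that share the apical arrays. Between the median and caudal lobes limma called 0.0% of all probe sets and no member. There 10 of 45 members (22.2%) against 11.6% of all probe sets had an unadjusted p under 0.05, also a larger share.

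**Figure D4:**
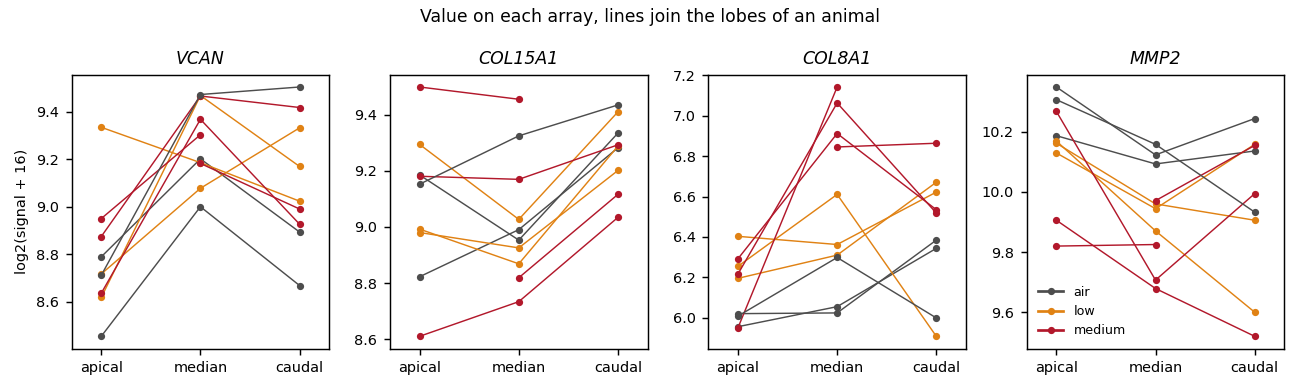
Value on each array, as log2(signal + 16), in the apical, median and caudal lobes for VCAN, COL15A1, COL8A1 and MMP2, with lines joining the lobes of an animal (air grey, low orange, medium red). VCAN is lower in the apical than in the median lobe in 8 of 9 animals, and COL15A1 is higher in the caudal lobe than in the other lobes of every animal that has it.

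Exposure was also compared within each lobe, with 1 array per animal. In the median lobe COL8A1 rose in medium animals by 0.86 ± 0.12 (adjusted p = 0.0413). Its median-lobe arrays stood at 6.02, 6.05 and 6.30 in air, 6.61, 6.31 and 6.36 in low and 7.06, 7.14, 6.85 and 6.91 in medium animals, with the medium arrays above all others. The epithelial marker KRT18 was also called in that lobe (1.28 ± 0.20, adjusted p = 0.0413), and its part in the result was not tested. In the apical and caudal lobes the medium differences of COL8A1 were 0.16 ± 0.11 and 0.40 ± 0.21, and neither was called. The difference between lobes was not called either, with an adjusted p of 0.697 for the interaction. The median-lobe call was lost without any animal but medium animal 34, with adjusted p from 0.0526 to 0.168.

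COL8A1 was the 1 of 45 members called in the median lobe of medium animals, where 0.404% of all probe sets were called. The looser count was 9 of 45 members, close to the 18.6% of all probe sets. The next smallest p values there belonged to MMP2 (-0.33 ± 0.09, adjusted p = 0.112) and the dim COL2A1 (-0.38 ± 0.11, adjusted p = 0.119). TNC had 0.89 ± 0.32 and COL5A1 0.66 ± 0.20 in that lobe, neither called. In the median lobe of low animals limma called 0.0% of all probe sets and no member, and 3 of 45 members against 6.93% of all probe sets had an unadjusted p under 0.05. These were COL2A1 (-0.37 ± 0.12), COL8A1 (0.30 ± 0.12) and COL1A2 (0.61 ± 0.26), each with an adjusted p of 0.711.

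In the caudal lobe TIMP3 had the largest difference of any member in any lobe, 1.33 ± 0.25 in medium animals (adjusted p = 0.119). Its caudal arrays stood at 6.54, 6.67 and 6.69 in air, 6.89, 6.43 and 7.04 in low and 7.55, 7.77 and 8.58 in the 3 medium animals with that lobe. All 3 were above all air and low arrays, and without medium animal 34 the difference was 1.54 and was called (adjusted p = 0.0439). COL5A1 had 0.65 ± 0.16 (adjusted p = 0.140) and TIMP2 0.29 ± 0.10 (adjusted p = 0.241). No member was called in the caudal lobe of medium animals, where 0.00417% of all probe sets were, and 6 of 45 members against 15.5% of all probe sets had an unadjusted p under 0.05.

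In the caudal lobe of low animals limma called no member and 0.0% of all probe sets, and 2 of 45 members against 6.09% of all probe sets had an unadjusted p under 0.05. These were TNC (0.56 ± 0.19) and LOXL4 (-0.51 ± 0.22), and COL5A1 followed with 0.34 ± 0.16, each with an adjusted p of 0.807. In the apical lobe of low animals the calls were again 0 members and 0.0% of probe sets, with 3 of 45 members against 7.12% of all probe sets at an unadjusted p under 0.05. They were LOXL4 (-0.47 ± 0.16), COL8A1 (0.29 ± 0.11) and TIMP3 (0.78 ± 0.34).

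In the apical lobe of medium animals limma called 0 members and 0.0% of probe sets, and 2 of 45 members against 5.77% of all probe sets had an unadjusted p under 0.05. These were the dim COL17A1 (-0.60 ± 0.21) and TIMP4 (-0.31 ± 0.11), and MMP2 followed with -0.28 ± 0.12 (adjusted p = 0.860). The apical comparison lacked animal 41 and the caudal one lacked animal 39, so the 3 lobes did not compare the same medium animals.

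**Figure D5:**
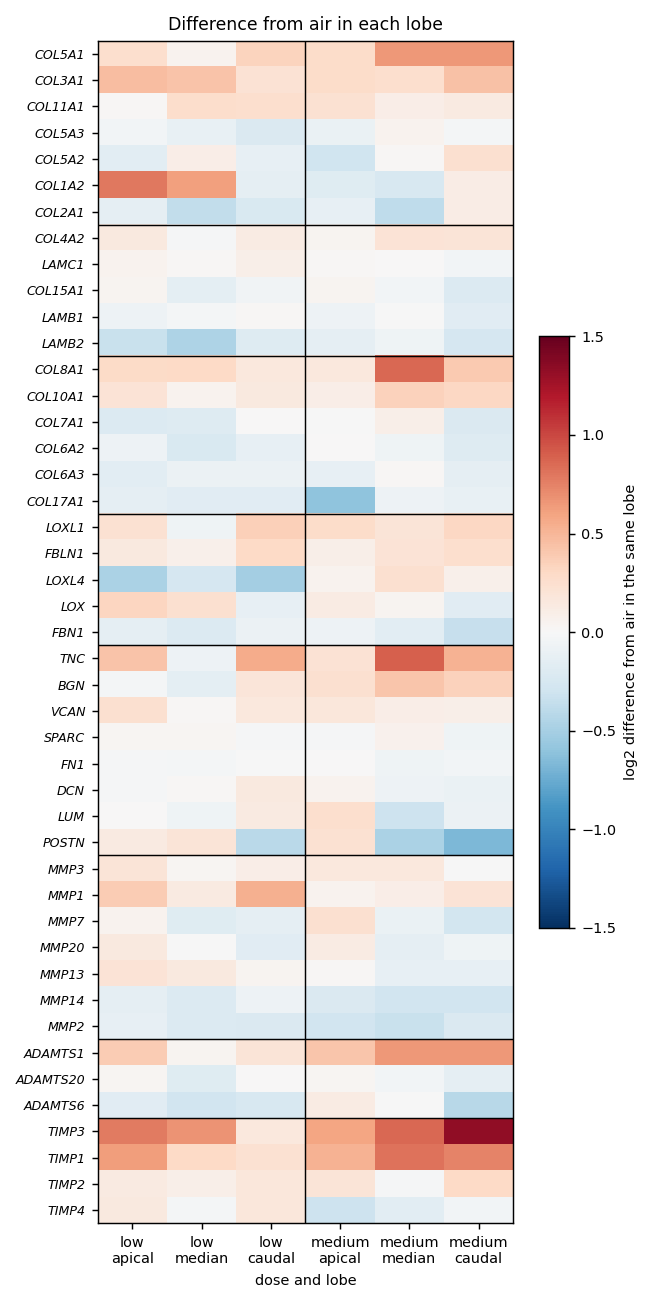
Mean log2 difference from air in the same lobe for the 45 members (rows, by role) in low and medium animals (columns, by lobe), red above air and blue below. TIMP3 in the caudal lobe of medium animals (1.33) is the strongest colour, and COL8A1 is strongest in the median lobe (0.86).

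The interaction of exposure and lobe, which tests whether the exposure difference varied between lobes, called no member and 0.0% of all probe sets by limma's moderated F test. The looser threshold took 2 of 45 members against 7.39% of all probe sets. These were TIMP3 and TNC (adjusted p = 0.646 each), followed by COL1A2 (adjusted p = 0.692) and COL8A1. TIMP3 in low animals was 0.78, 0.67 and 0.15 above air in the apical, median and caudal lobes, and in medium animals 0.59, 0.87 and 1.33. TNC in low animals was 0.42, -0.08 and 0.56 from air in the same order, and in medium animals 0.22, 0.89 and 0.53. COL1A2 in low animals was 0.79 and 0.61 above air in the apical and median lobes and -0.14 in the caudal lobe.

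The spread between animals of a group was taken from values over all lobes of an animal, and that between lobes from single arrays. The spread between animals therefore also holds part of the spread between lobes, and the sizes of these SDs cannot be compared directly. The median SD between animals within a group was 0.19 over the 45 members, and the median residual SD between lobes was 0.20. After POSTN, the widest spread between animals was that of ADAMTS1 (0.59), TIMP3 (0.48) and TIMP1 (0.41). The narrowest, after quantile normalization, was that of SPARC (0.01) and FN1 (0.05). In deposited signal SPARC was 3207 ± 197 (SD, n = 3) in air and 3086 ± 256 (SD, n = 3) in low animals. Its SD of 0.01 therefore holds for the normalized scale only. Medium animals 39 and 41 were the highest of all 10 for 11 and 10 members, and animals 42 and 39 the lowest for 9 and 7. Animals 39 and 41 each lacked a lobe, and animal 39 had the least intact RNA. The part of this in the extremes was not tested. Low animal 32 was the highest for 0 members and the lowest for 1.

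Genes that act with the members were counted from 6 lists that cover collagen processing, matrix receptors, the TGF-beta pathway, other proteases and inhibitors, other glycoproteins and other basement membrane genes. None of their 68 measured genes was called by limma in medium or low animals against air over the lobes. Within the median lobe of medium animals 2 of the proteases and inhibitors were called, SERPINE2 (0.98 ± 0.15, adjusted p = 0.0413) and ADAM15, a membrane-anchored metalloproteinase (0.91 ± 0.15, adjusted p = 0.0483). The other 5 lists had no such call within any lobe, and 0.404% of all probe sets were called in that median-lobe comparison. In medium animals an unadjusted p under 0.05 was found for 2 TGF-beta pathway genes, 1 collagen processing gene, 3 receptors and 4 proteases or inhibitors. In low animals it was found for 2, 0, 1 and 0 of these. Over all probe sets the shares were 16.6% in medium and 7.41% in low animals. Of the 10 TGF-beta pathway genes, PMEPA1, a target and inhibitor of the pathway, had the smallest p in medium animals (0.65 ± 0.12, adjusted p = 0.0753). Of the 17 proteases and inhibitors, SERPINE2, an inhibitor of plasminogen activators and thrombin, had 0.63 ± 0.17 (adjusted p = 0.128). Of the 12 receptors, the integrin chain ITGA8 had -0.57 ± 0.14 (adjusted p = 0.112). Of the 9 collagen processing genes, COLGALT1, which adds galactose to collagen, had 0.26 ± 0.09 (adjusted p = 0.187).

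The 19 other glycoprotein and proteoglycan genes had a median difference of 0.27 in medium animals, 12 above 0 and 7 below. Of the 19, 6 higher and 1 lower had an unadjusted p under 0.05, against 16.6% of all probe sets. That larger share was not tested. THBS1, thrombospondin-1, which can activate latent TGF-beta, had the smallest p there (0.54 ± 0.14, adjusted p = 0.120). In low animals the median of the glycoprotein and proteoglycan list was 0.03. There 1 of its genes had an unadjusted p under 0.05, against 7.41% of all probe sets. The single other basement membrane gene, NID2, had -0.09 ± 0.16 in medium animals.

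Partner genes were also called between lobes. Of all probe sets, 2.38% were called between the apical and median lobes and 0.167% between the apical and caudal lobes. In the apical against the median lobe, ITGA8 (0.44 ± 0.10, adjusted p = 0.0316), ITGB5, an integrin chain (0.22 ± 0.05, adjusted p = 0.0316), and PRELP, a collagen-binding proteoglycan (0.44 ± 0.09, adjusted p = 0.0252), were higher. SERPINE2 (-0.79 ± 0.19, adjusted p = 0.0380), THBS1 (-0.38 ± 0.10, adjusted p = 0.0451), SERPINH1, the collagen chaperone (-0.39 ± 0.10, adjusted p = 0.0423), and SDC4, the receptor syndecan-4 (-0.24 ± 0.06, adjusted p = 0.0340), were lower. Against the caudal lobe TGFBR3, a TGF-beta coreceptor, was higher in the apical lobe (0.49 ± 0.08, adjusted p = 0.0169).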

How the data were processed

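Lung RNA from 10 pigs was labelled with biotin and hybridised to Affymetrix porcine arrays, per the labels' protocols. The deposited values were linear signal intensity per probe set for 28 arrays. The summarization software was not given in the sources used here. The mean of each array, trimmed by 2% at both ends, was 150. Signals were taken as log2(signal + 16) and quantile normalized, because lower quartiles differed by 0.32, above a limit of 0.2. The 124 control probe sets were left out, and 23999 were tested with limma 3.58.1 in R 4.3.3, with plots from Python 3.11.15. Gene names came from the platform annotation supplied with the data, and all 45 member symbols matched RefSeq. No sequence, genome coordinate, detection call or saturation flag was analysed here.

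Exposure was tested on 1 value per animal with the 3 groups in 1 fit, and within lobes on 1 array per animal. Lobes and the interaction were tested on 28 arrays, each animal being a fixed block, since lobes of the same animal are paired by its number. Within animals the consensus correlation of lobes was 0.33. No 2 arrays were identical, and the highest correlation between arrays was 0.992. Precision is limited by the number of arrays.

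Named members were every called member, the 10 largest differences each way in medium against air, the 5 each way in the other exposure comparisons, the 4 smallest p of the interaction and the 3 smallest p within each lobe. Animal values are given for the 12 smallest p in medium against air, and other members named beside them were chosen after their values were seen. Members and lists were chosen with earlier results of these data known. Steps were tested on simulated data.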

Additional observations from a re-analysis of the deposited data

Results flagged for a closer look

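COL8A1 in medium animal 41 had a value of 6.75 on the log2(signal + 16) scale, apart from the other 3 medium animals, which lay between 6.57 and 6.60. The gap was 0.839 of the range of the 4 animals, above the 95% critical value of Dixon's test. Of 23 members tested for such a medium animal, 1 was flagged, and chance flags about 1 in 20 groups. Without animal 41 the difference of COL8A1 from air was 0.46 and was not called (adjusted p = 0.104).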

How the results depend on the processing

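The count of called members was small in every comparison, so single calls decided it. In medium against air it was 1 in the main setting and 0 with the deposited scaling, an offset of 1, trend and robust eBayes, only the 2 groups compared, only the 8 complete animals, or with a gene's probe sets averaged, and 0 to 2 on leaving out each animal. The replicate block as a random effect over all arrays also gave 1 there, but it was COL5A1 (adjusted p = 0.0267) in place of COL8A1 (adjusted p = 0.0726), and it gave 1 in medium against low (LOXL4, adjusted p = 0.0191), where leaving out each animal gave 0 to 1. COL8A1 was not called in 15 of 20 settings, with adjusted p from 0.0303 to 0.256 over all of them. Apical against median gave 2 with median-centred arrays, 3 with only the brighter probe sets, 2 with trend and robust eBayes, 0 with no replicate block, 0 with only the air animals, and 0 to 2 on leaving out each animal. Apical against caudal gave 0 with the deposited scaling, median-centred arrays, an offset of 1, only the 8 complete animals, no replicate block or only the air animals, and 0 to 2 on leaving out each animal. Medium against air gave 0 with an offset of 1 and 0 to 1 on leaving out each animal in the median lobe, and 0 to 1 in the caudal lobe. The cause of these changes was not tested.

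Only a result called in the main setting could lose a call, and most named results were not called there. The counts that follow therefore do not measure how stable the calls were. Of 1102 values of single members under alternatives, 1048 kept direction and side of the threshold, and 44 lost and 5 gained the call. Another 5 reversed sign, all in medium against air. These were COL1A2 (0.077) and MMP13 (0.023) with only the 8 complete animals, MMP13 (0.028) with a gene's probe sets averaged, POSTN without air animal 44 (0.10, with a range of -0.57 to 0.10 on leaving out each animal) and LAMB2 without medium animal 34 (0.037, with a range of -0.18 to 0.037). None of the 78 member medians under alternatives moved by more than 0.15, the SD of the median between animals. With 14 members below the median probe set, small differences of dim genes could not be resolved.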
